A study of Homo sapiens with 6 samples.

Results

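The genes described here encode 10 factors that prepare and start DNA replication at origins, measured in HSC-4, a human cell line from an oral squamous carcinoma. They are *ORC1*, *ORC6*, *CDC6*, *CDT1*, *GMNN*, *CDC45*, *GINS1*, *GINS2*, *GINS3* and *GINS4*. All were taken from the 58884 genes of the count tables by their current symbols, without the *MCM* genes, and all 10 passed the filter on low counts that left 15001 genes for testing. The comparison was between 3 libraries from cells given 50 μM DAPT, an inhibitor of the Notch-activating protease γ-secretase, for 24 h and 3 control libraries. The published methods name DMSO as the vehicle of the controls, while the series' design text mentions growth medium and the labels say only control. If the controls lacked DMSO, its effect and that of DAPT cannot be told apart. No source states whether same-group libraries came from separate cultures, and the p-values then measure only the spread between these samples, which may be technical. A single carcinoma line at a single dose and time was sequenced.

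Before a cell can copy its DNA, the origin recognition complex marks origins, and CDC6 and CDT1 join it to load the ring-shaped MCM helicase, a step called licensing. Geminin, the product of *GMNN*, binds CDT1 and blocks a further round of licensing once S phase has begun. At the start of S phase CDC45 and the GINS complex, built from the products of *GINS1* to *GINS4*, attach to the loaded MCM ring and turn it into the working helicase. Many of these genes are transcribed in a cell cycle-dependent manner from promoters bound by E2F factors, and their transcripts are abundant in proliferating cells.

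Library totals lay between 12276313 and 16317672 reads, and 3 reads, the smallest signal considered, correspond to 0.184 to 0.244 CPM (counts scaled to library size), far below every value of the 10 genes. The squamous markers *KRT5* (2701 CPM in the controls) and *TP63* (378 CPM) were abundant, whereas *KRT14* was low, at 3.17 CPM, and of 8 squamous markers 6 were lower and 2 higher with DAPT. The Notch targets *HES1* (log2 fold change -0.77), *HES4* (-1.48) and *HEY1* (-1.98) were all lower. Control replicate 1 stood apart from the other libraries. Its 7 fibroblast marker genes summed to 566 CPM, against 57.4 CPM in the lowest control and 50.0 to 55.2 CPM with DAPT. None of the 3 that could be tested was called changed. *COL1A2* reached 215 CPM in control replicate 1 against 0.663 to 2.02 CPM in the other controls and 0.195 to 0.845 CPM with DAPT. The 4 leukocyte markers together stayed at or below 0.361 CPM and both endothelial markers together at or below 1.37 CPM in every library. The calls, fold changes and ratios below were therefore also computed without control replicate 1.

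Transcripts of 9 of the 10 genes were significantly lower with DAPT and 0 were higher, at an adjusted p under 0.05 in the quasi-likelihood test of edgeR. Over all 15001 tested genes, 18% were called lower and 17.2% higher. The reductions were moderate, with a median log2 fold change of -0.53 over the 10 genes, against 0.01 over all tested genes, and the single values ran from -0.69 for *CDC45* to -0.19 for *ORC6*. In CPM, every DAPT library lay below every control library in all 10 genes, which held for 22.7% of all tested genes. Every DAPT library lay above the controls in 23.6%. In TPM, which also accounts for exonic length, *CDT1* and *ORC6* overlapped between the groups. *CDT1* was at 44.47 TPM in DAPT replicate 1 against 42.80 TPM in control replicate 1. *ORC6* was at 20.33 TPM in DAPT replicate 2 against 20.15 TPM in control replicate 3. Summed, the 10 transcripts made up 421, 426 and 433 CPM in the controls and 304, 292 and 302 CPM with DAPT. Without control replicate 1 the same 9 genes were called lower, with a median of -0.53. In bulk RNA, a smaller share of cells that express these genes and less transcript per cell cannot be told apart.

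**Figure D1:**
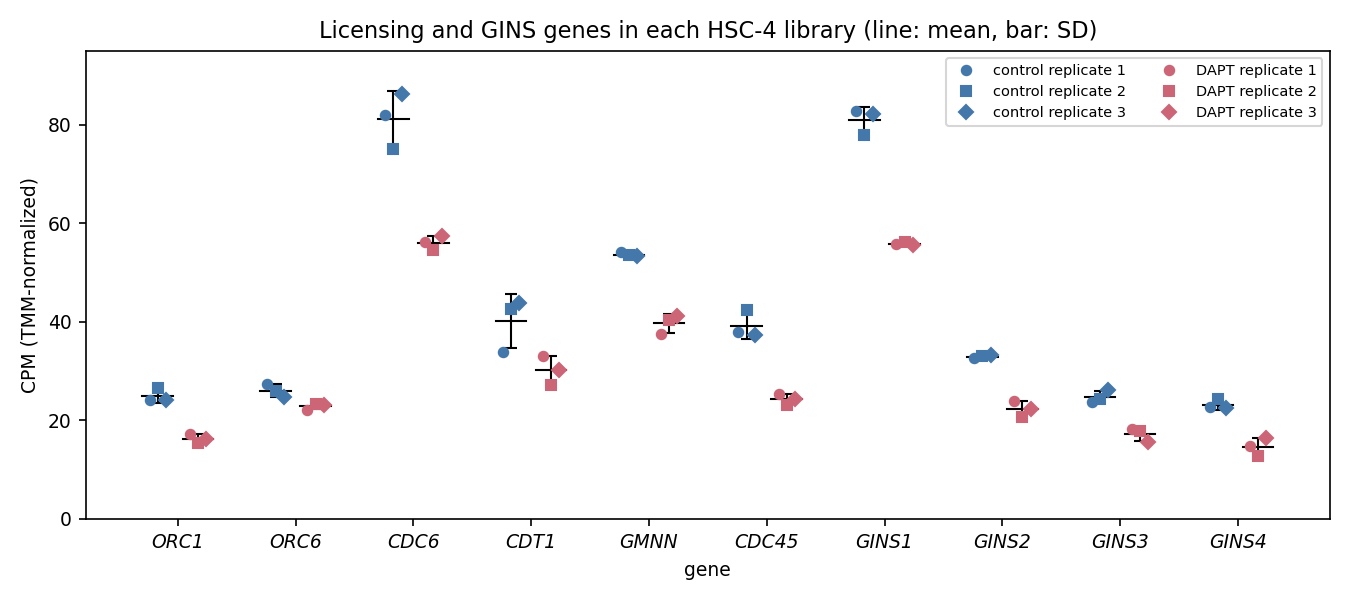
TMM-normalized CPM (y axis, linear from 0) of each gene in the 3 control (blue) and 3 DAPT (red) libraries, with the mean as a line and the SD as a bar. All red points of a gene sit below all of its blue points, with the smallest gap for *CDT1*, between 33.9 CPM in control replicate 1 and 33.1 CPM in DAPT replicate 1.

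The promoters of these genes are shown because 9 of them were called lower. RefSeq windows (GRCh38.p14) of 300 bases ran from 250 bases before a transcription start to 50 bases after it. They were found for all but *GINS4*, 12 windows in all, since *CDC45* and *GMNN* have several starts. The 9 genes with a window thus lack *GINS4*, which was called lower, and include *ORC6*, which was not. Below are the bases from 85 before the start to 30 from the start on for *CDC6*, *CDT1*, *GMNN*, *GINS1* and *GINS2*, which hold an E2F word, and for *ORC1*, which fell without one. The same stretch of *GINS3*, which lies inside the annotated span of its gene, is not printed. The printed stretches of *GMNN* and *GINS2* also lie inside the annotated spans of their genes. Each is written in the direction of transcription, and capitals mark E2F words and CCAAT boxes in either orientation.
CDC6 (chr17:40287794-40287908, plus strand): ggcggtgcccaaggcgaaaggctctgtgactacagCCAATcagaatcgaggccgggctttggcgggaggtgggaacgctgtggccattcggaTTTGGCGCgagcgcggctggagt
CDT1 (chr16:88803704-88803818, plus strand): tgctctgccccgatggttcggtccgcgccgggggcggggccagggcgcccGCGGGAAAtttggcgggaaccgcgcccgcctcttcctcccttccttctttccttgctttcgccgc
GMNN (chr6:24775328-24775442, plus strand): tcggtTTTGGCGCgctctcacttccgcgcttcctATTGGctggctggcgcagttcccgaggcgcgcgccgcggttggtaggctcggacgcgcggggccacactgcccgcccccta
GINS1 (chr20:25407588-25407702, plus strand): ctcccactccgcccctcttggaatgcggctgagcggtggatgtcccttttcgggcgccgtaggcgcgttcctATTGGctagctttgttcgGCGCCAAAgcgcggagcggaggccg
GINS2 (chr16:85688925-85689039, minus strand): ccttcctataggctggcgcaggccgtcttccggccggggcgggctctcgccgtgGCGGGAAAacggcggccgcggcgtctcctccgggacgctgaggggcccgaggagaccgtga
ORC1 (chr1:52404394-52404508, minus strand): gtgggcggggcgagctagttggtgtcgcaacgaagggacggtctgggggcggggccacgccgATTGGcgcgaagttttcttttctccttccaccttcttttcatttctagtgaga

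The E2F words searched were TTTCCCGC, TTTCGCGC, TTTGCCGC and TTTGGCGC on both strands. They occurred in 6 of the 12 windows, 1 each for *CDC6*, *CDT1*, *GMNN*, *GINS1*, *GINS2* and *GINS3*, against 3.31% of the 35116 windows of all genes. Counted by gene, this was 6 of 9, against 3.99% of all genes. The word began 8 bases into the transcript in *CDC6* and 6 bases into it in *GINS1*. It began 31 bases before the start in *GINS2*, 35 before in *CDT1* and 80 before the second start of *GMNN*. In *GINS3* it began 5 bases before the start and ran across it. With the window cut to the 250 bases before the start, 3 windows held a whole E2F word, against 2.79% of all windows. This cut also splits the word of *GINS3*. The windows of *ORC1*, *ORC6* and *CDC45* held none of these words, which says only that these letters are absent there. Runs 1 letter away from a searched word were not counted or marked. Examples are TTTGGCGG in the stretches of *CDC6* and *CDT1* and at start 3 of *CDC45*, and ATTGGCGC in that of *ORC1*. The counts therefore hold for the searched words only. The other words are counted by gene, since the windows of *CDC45* at starts 2 and 3 overlap and share sites. CCAAT, the word of the factor NF-Y, was present in 7 of the 9 genes, against 39.7% of all genes, and the CHR words TTTGAA and TTCGAA in 0, against 19.5%. TGGGAA, the core bound by the Notch partner RBPJ, was present in 3 of the 9 genes (*GINS3*, *CDC6* and *CDC45*), against 28.1%, a share near the background. None of these words contains another of them, and a match is a run of letters only. The background by gene was the 27305 genes with a window, tested here or not, and it was not matched for base composition. The 12 member windows held from 49.7% to 78.3% G and C.

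**Figure D2:**
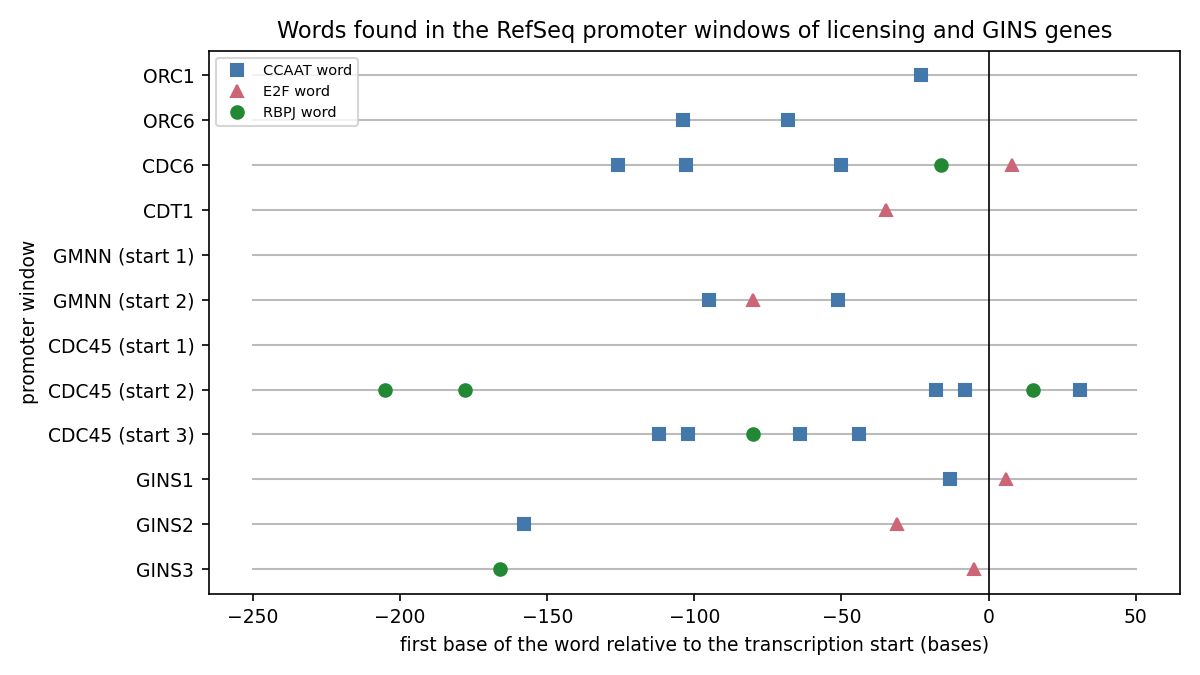
Position of each word (x axis, bases from the transcription start) in the 12 promoter windows (grey lines, y axis), with E2F words as triangles, CCAAT as squares and RBPJ words as circles. The E2F triangles lie between 80 bases before and 8 bases after the start, while *ORC1*, *ORC6* and starts 2 and 3 of *CDC45* show squares or circles without a triangle, and the first starts of *CDC45* and *GMNN* hold no word.

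Of the origin recognition genes among the 10, *ORC1* was called lower and *ORC6* was not, and the difference between them was not tested. *ORC1* (ENSG00000085840, chromosome 1 of GRCh38 from 52372829 to 52404423) encodes the ATPase subunit whose level varies over the human cell cycle. It was at 24.1, 26.6 and 24.0 CPM in the controls and at 17.1, 15.4 and 16.3 CPM with DAPT. The DAPT libraries were closely grouped and separate from the controls. This made *ORC1* 34.6% lower (log2 fold change -0.61, standard error (SE) 0.08, adjusted p = 6.88e-06 in edgeR). *ORC6* (ENSG00000091651, chromosome 16 from 46689643 to 46698394), the smallest subunit, was at 27.3, 26.0 and 24.7 CPM in the controls and at 22.1, 23.4 and 23.0 CPM with DAPT. Although these values do not overlap, the log2 fold change of -0.19 (SE 0.08) did not pass the threshold (adjusted p = 0.0594 in edgeR). It stayed short of it in all 14 alternatives (adjusted p from 0.0521 to 0.164).

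The other subunits give the frame for this. *ORC2*, *ORC4* and *ORC5* had log2 fold changes of 0.00, 0.02 and -0.04, none called, while *ORC3* (-0.19, adjusted p = 0.0326 in edgeR) and the complex-binding *LRWD1* (-0.19, adjusted p = 0.0455) were called lower. Of the calls for *ORC3* and *LRWD1*, 0 were left with DESeq2, with scaling by library size alone, without the low-count filter, or without control replicate 2, DAPT replicate 1 or DAPT replicate 3. Leaving out control replicate 3 or DAPT replicate 2 left 1 of them. To remove the scaling between libraries, reads per kilobase of *ORC1* were divided by the geometric mean of *ORC2* to *ORC5* within each library. This ratio was 1.00 in the controls and 0.679 with DAPT. On the log2 scale the library values were -0.08, 0.08 and 0.01 in the controls and -0.46, -0.66 and -0.55 with DAPT, a difference of -0.56 (two-sided exact permutation p = 0.1, the smallest that 3 against 3 libraries can give, 0.25 adjusted over 10 ratios). For *ORC6* the same ratio went from 0.757 to 0.691, a difference of -0.13 on the log2 scale, also without overlap (exact permutation p = 0.1). Neither ratio can pass a threshold of 0.05 in this design.

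*CDC6* and *CDT1*, which load the MCM ring, were both lower. *CDC6* (ENSG00000094804, chromosome 17 from 40287879 to 40304657) was at 82.0, 75.0 and 86.3 CPM in the controls and at 56.1, 54.6 and 57.4 CPM with DAPT. The groups were far apart relative to their spread, and *CDC6* was 30.8% lower (log2 fold change -0.53, SE 0.06, adjusted p = 5.66e-07 in edgeR). *CDT1* (ENSG00000167513, chromosome 16 from 88803789 to 88809258) had the widest spread of the 10 genes in the controls, relative to its mean. It was at 33.9, 42.6 and 43.9 CPM there and at 33.1, 27.2 and 30.1 CPM with DAPT, so control replicate 1 came close to the DAPT libraries. It was 24.6% lower (log2 fold change -0.41, SE 0.10, adjusted p = 0.00312 in edgeR). Without control replicate 1, the library with the fibroblast transcripts, the log2 fold change was -0.52 (adjusted p = 6.78e-06 in edgeR). Whether those transcripts bear on the low *CDT1* value of that library was not tested.

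*GMNN* (ENSG00000112312, chromosome 6 from 24774931 to 24786099), which encodes the inhibitor of CDT1, fell along with its target. It was at 54.1, 53.6 and 53.3 CPM in the controls, the tightest of the 10 genes relative to the mean, and at 37.5, 40.4 and 41.1 CPM with DAPT. The reduction was 26.1% (log2 fold change -0.44, SE 0.07, adjusted p = 2.31e-05 in edgeR). The balance of *CDT1* to *GMNN* was compared within each library. Reads per kilobase of *CDT1* relative to those of *GMNN* stood at 0.667 in the controls and 0.680 with DAPT. The log2 values of -0.83, -0.49 and -0.44 in the controls and -0.34, -0.73 and -0.61 with DAPT overlapped (difference 0.03, exact permutation p = 1), and the difference turned to -0.10 without control replicate 1 and to -0.08 without DAPT replicate 1. *CDC6* relative to *CDT1* also overlapped between the groups (log2 difference -0.12, exact permutation p = 0.5) and was at 0.00465 without control replicate 1. A change in either ratio was not detectable with these libraries.

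*CDC45* (ENSG00000093009, chromosome 22 from 19479459 to 19520612), the helicase partner that joins MCM when an origin fires, had the largest reduction of the 10 genes. It was at 38.0, 42.4 and 37.3 CPM in the controls and at 25.3, 23.0 and 24.4 CPM with DAPT. With DAPT it was 38.2% lower (log2 fold change -0.69, SE 0.08, adjusted p = 4.36e-07 in edgeR).

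All 4 GINS subunit genes fell, with log2 fold changes from -0.66 to -0.52. *GINS1* (ENSG00000101003, chromosome 20 from 25407673 to 25452628), which encodes PSF1, was at 82.7, 77.9 and 82.2 CPM in the controls and at 55.8, 56.1 and 55.5 CPM with DAPT. Its DAPT libraries differed by less than 1 CPM, and it had the smallest p of the 10 genes (log2 fold change -0.54, SE 0.06, adjusted p = 1.45e-07 in edgeR). *GINS2* (ENSG00000131153, chromosome 16 from 85676198 to 85690073), which encodes PSF2, was at 32.6, 33.0 and 33.2 CPM in the controls and at 23.9, 20.8 and 22.4 CPM with DAPT. Here the controls were the tighter group, and *GINS2* was 32.0% lower (log2 fold change -0.56, SE 0.08, adjusted p = 8.07e-06 in edgeR).

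*GINS3* (ENSG00000181938, chromosome 16 from 58295080 to 58406144), which encodes PSF3, was at 23.8, 24.3 and 26.2 CPM in the controls and at 18.3, 17.8 and 15.5 CPM with DAPT. It was 30.2% lower (log2 fold change -0.52, SE 0.09, adjusted p = 6.13e-05 in edgeR). *GINS4* (ENSG00000147536, chromosome 8 from 41529218 to 41545030), which encodes SLD5, was at 22.7, 24.3 and 22.4 CPM in the controls and at 14.7, 12.8 and 16.4 CPM with DAPT. Its log2 fold change of -0.66 (SE 0.09, adjusted p = 9.6e-06 in edgeR) was the largest of the 4 subunits, and its DAPT libraries were the most scattered of them relative to their mean. Genes on the opposite strand cover 23.4% of the exonic bases of *GINS4* and 10.9% of those of *GINS3*, where the counting relied on read strand. No gene on the same strand overlaps an exon of any of the 10 genes.

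The proportions among the GINS transcripts were tested within libraries as well. Each subunit was set against the geometric mean of the other subunits, in reads per kilobase. *GINS1* stood at 3.29 in the controls and 3.41 with DAPT, *GINS2* at 1.38 and 1.40, *GINS3* at 0.512 and 0.533 and *GINS4* at 0.429 and 0.393. The library values overlapped between the groups in all 4 cases, with exact permutation p from 0.4 to 0.7. For *GINS4* the log2 values were -1.23, -1.13 and -1.30 in the controls and -1.39, -1.52 and -1.13 with DAPT, so the overlap rested on DAPT replicate 3. The difference of -0.13 was -0.24 without that library (exact permutation p = 0.1), -0.04 without DAPT replicate 2 and -0.08 without control replicate 2. Since p cannot fall below 0.1 here, whether *GINS4* changed more than its partners is not settled by these libraries. *CDC45* relative to the GINS mean went from 1.72 to 1.58 and the GINS mean relative to the mean of *MCM2* to *MCM7* from 0.241 to 0.263. These 2 ratios did not overlap between the groups, with log2 differences of -0.12 and 0.13 (exact permutation p = 0.1 each, 0.25 adjusted over 10 ratios). The difference of *CDC45* to GINS was -0.06 without control replicate 2, its highest library.

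**Figure D3:**
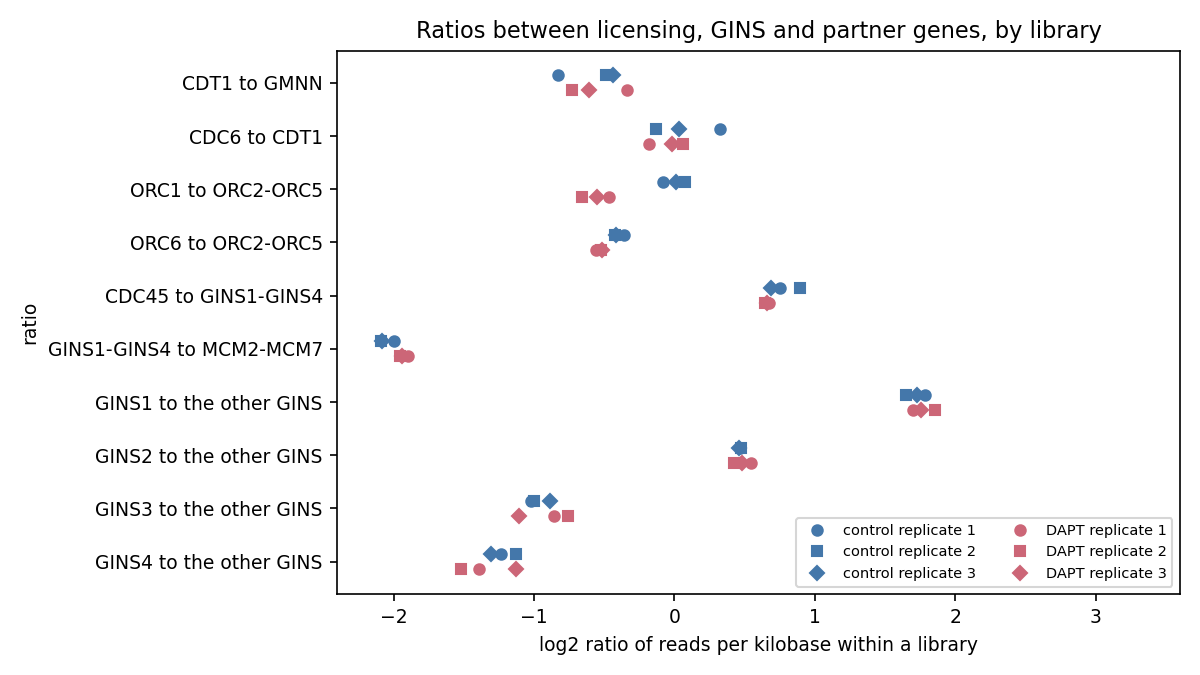
Log2 ratio of reads per kilobase (x axis) in each of the 6 libraries for the 10 ratios (y axis), controls in blue and DAPT in red. The colours separate in 4 ratios, most widely for *ORC1* to *ORC2*-*ORC5*, and overlap in the other 6.

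For levels between genes, TPM values, which account for exonic length, were used. In the controls the order ran from *GMNN* (75.5 ± 0.583 TPM, SD, n = 3) through *GINS1* (68.3 ± 2.68), *CDC6* (53.2 ± 4.19), *CDT1* (50.7 ± 6.97), *CDC45* (48.0 ± 3.04), *GINS2* (35.7 ± 0.566), *ORC1* (27.8 ± 1.48), *ORC6* (21.0 ± 0.977) and *GINS3* (16.9 ± 0.980) to *GINS4* (14.8 ± 0.518). Neighbours in this order overlapped between *CDC6* and *CDT1* and between *CDT1* and *CDC45*, and the library values of the other neighbours were separate. With DAPT the order was nearly the same, from *GMNN* (59.9 ± 3.33 TPM) to *GINS4* (10.1 ± 1.26 TPM). The exceptions were *CDT1* (40.8 ± 3.79 TPM) and *CDC6* (39.5 ± 1.11 TPM), which overlapped, and *ORC6* (19.9 ± 0.673 TPM) and *ORC1* (19.5 ± 0.951 TPM), which also overlapped. *ORC1* TPM thus lay above that of *ORC6* in all control libraries whereas the ranges of the 2 genes overlapped with DAPT. The annotated exonic length takes in all isoforms of a gene, from 2476 bases for *GMNN* to 5447 for *GINS4*, so a TPM understates a gene whose long isoforms are not made.

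The partners of these genes were followed with 5 lists of 49 genes. Of the 48 tested, 35 were called lower and 1 higher, with a median log2 fold change of -0.34. Over all 15001 tested genes, the background for each of the lists, 18% were called lower and 17.2% higher. In the list of the MCM helicase all 7 genes were lower (median -0.72), from *MCM7* (-0.77) to the MCM-binding *MCMBP* (-0.25). Of the 13 origin firing factors, which convert licensed origins into forks, 11 were lower and 0 higher (median -0.35). *MCM10*, which helps to activate the helicase, had the largest change among them (-0.72), followed by the cyclin E genes *CCNE1* (-0.51) and *CCNE2* (-0.46). Genes on the opposite strand cover 37.1% of the exonic bases of *CCNE2*. The kinase gene *CDC7* was lower (-0.30, adjusted p = 0.00246 in edgeR), while its activators *DBF4* (-0.08) and *DBF4B* (-0.14) were not called.

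Of 12 fork partners, genes of the replisome that work beside the helicase, 10 were lower and 0 higher (median -0.48). *POLA2* (-1.02), a subunit gene of DNA polymerase alpha, had the largest change, followed by *POLE2* of polymerase epsilon, and *WDHD1* (-0.55), *CLSPN* (-0.50) and *TIMELESS* (-0.46) lay near the median of the 10 licensing and GINS genes. Other genes on the same strand cover 36.1% of the exonic bases of *POLA2*, 21.1% of *TIPIN* (-0.26) and 16.8% of *PRIM1* (-0.53), and reads there were not counted. The small polymerase epsilon subunits *POLE3* (-0.12) and *POLE4* (-0.17) were not called. Among the 11 tested regulators, most of which govern the destruction of licensing factors, the picture was mixed, with 5 lower, 1 higher and 5 not called (median -0.11). *DTL*, the receptor that directs CDT1 to degradation in S phase, was lower (-0.49), as were *CCNF* (-0.33), *SKP2* (-0.30), *CDC20* (-0.30) and the scaffold gene *CUL4A* (-0.16). Its paralog *CUL4B* was higher, at 121, 109 and 108 CPM in the controls and 133, 131 and 133 CPM with DAPT (log2 fold change 0.23, adjusted p = 0.00193 in edgeR). *DDB1*, the adaptor in the same ligase, was at -0.02 and not called. The geminin relative *GMNC* was not tested, with at most 0.166 CPM in any library. *MCIDAS*, among the regulators not called, had only 10 to 15 reads per library, so a moderate change could hardly be called.

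**Figure D4:**
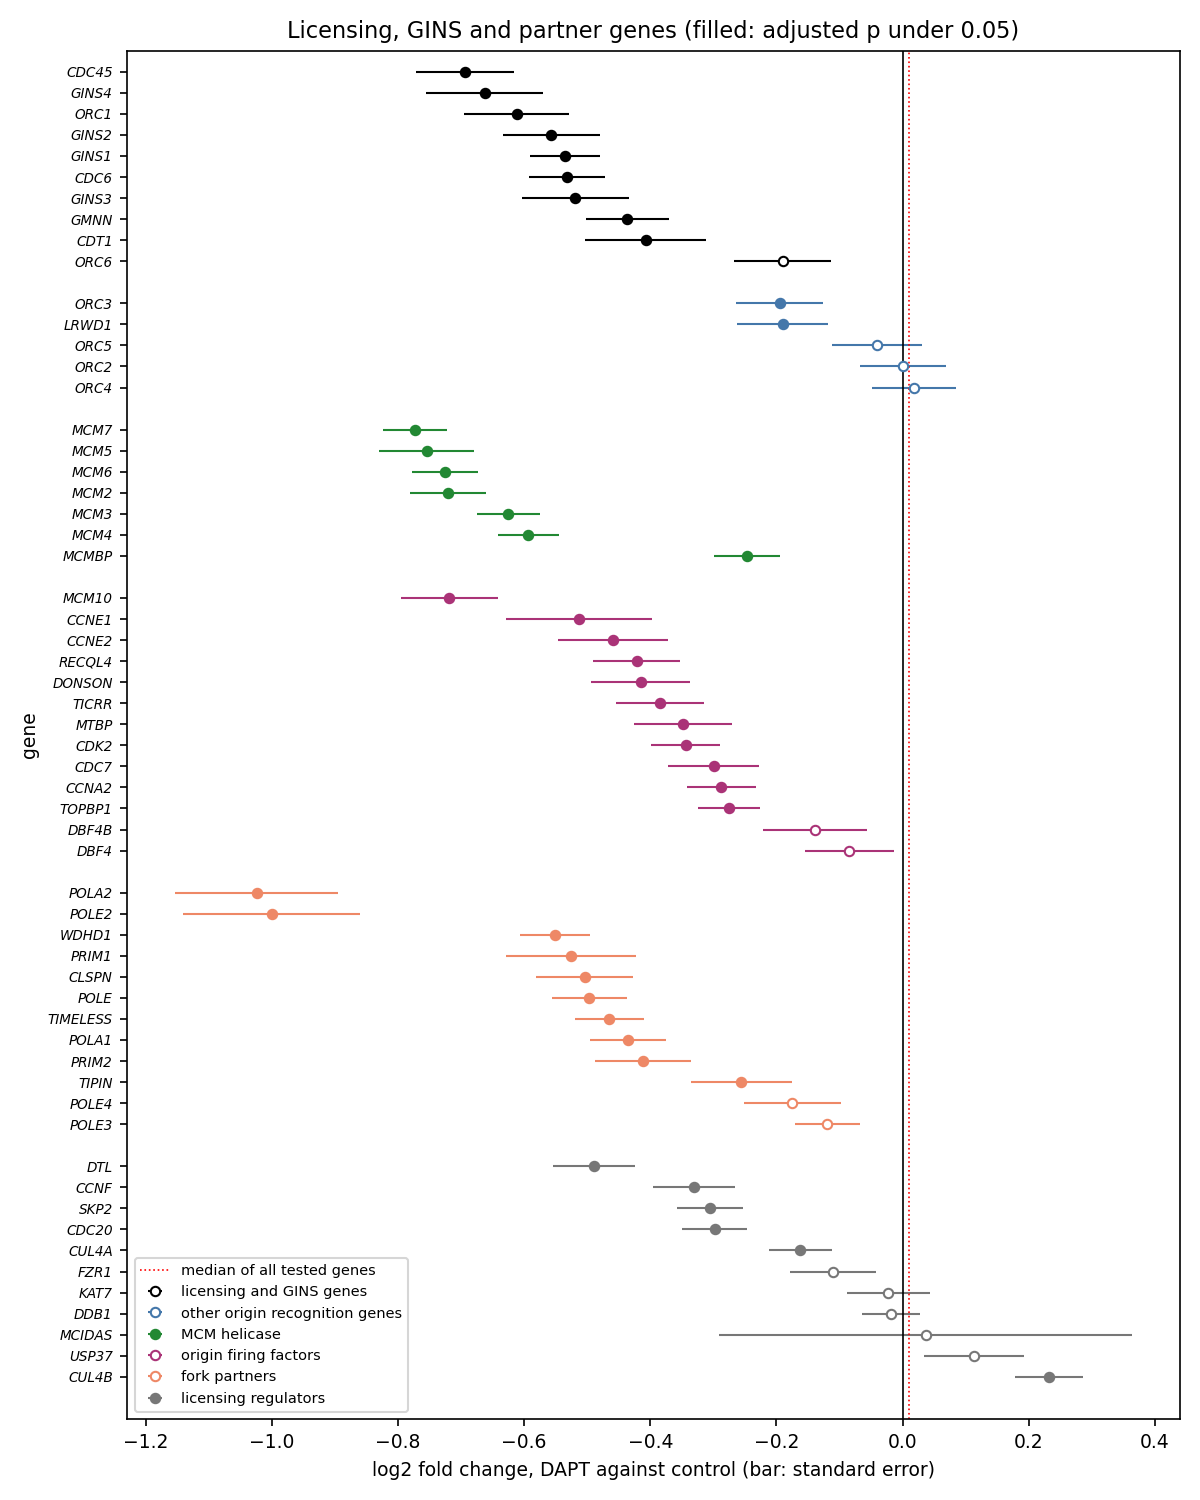
Log2 fold change with DAPT (x axis, bar: standard error) of the 10 licensing and GINS genes and their tested partners, grouped by list (y axis), with filled points for an adjusted p under 0.05 in edgeR and a dotted line at the median of all tested genes (0.01). *ORC2*, *ORC4* and *ORC5* sit at the dotted line, *CUL4B* lies to its right at 0.23, and 9 of the 10 licensing and GINS genes lie between -0.69 and -0.41.

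These genes moved with other transcripts of cycling cells. The S phase list of Seurat had 43 tested genes, of which 4 are among the 10 (*GINS2*, *CDC45*, *CDC6* and *GMNN*). The other 39 had a median log2 fold change of -0.49, with 34 lower and 0 higher. Of the 54 G2/M genes, 40 were lower and 0 higher, with a median of -0.22. Over all tested genes, 18% were called lower and 17.2% higher. Genes of the partner lists were not removed from either phase list. The phase counts can therefore repeat genes already counted above and are not a separate set. The part of a shift in cell cycle phase in the lower licensing and GINS transcripts was not tested.

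Over the 6 libraries, the 5 genes whose centred log2 CPM was most like the mean of the 10, among 14189 genes with at least 1 CPM, were *BICD2*, *APOL3*, *HEY1*, *MYORG* and *SLC38A5*. Pearson's r was 0.999 for each, a description over 6 points that share the split into 2 groups. Their log2 fold changes differed widely in size, from -0.30 for *BICD2* to -1.98 for the Notch target *HEY1*, since r does not depend on size.

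Each of the 9 genes called lower was also called lower when any 1 of the 6 libraries was removed. The value moved most for *CDT1*, from -0.34 to -0.52, and least for *GINS1*, from -0.52 to -0.57.

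**Figure D5:**
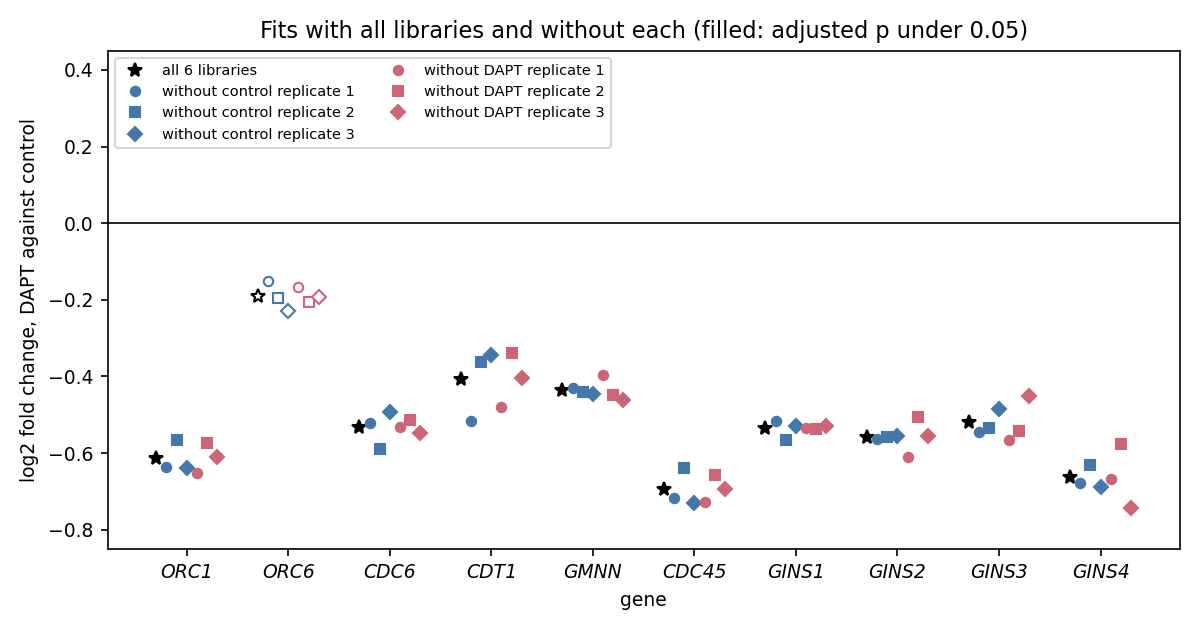
Log2 fold change of each gene (y axis) in the fit of all 6 libraries (star) and without each control (blue) or DAPT (red) library, with filled symbols for an adjusted p under 0.05 in edgeR. All symbols are filled apart from those of *ORC6*, which lie between -0.23 and -0.15.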

How the data were processed

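mRNA libraries of HSC-4 cells were sequenced as single-end reads by the authors, who trimmed them with Trim Galore, aligned them to GRCh38 with HISAT2 and deposited read counts per Ensembl gene, not normalized. The submitters' notes also list HTSeq and DESeq2, and the published methods edgeR. Per the file headers, the counts came from featureCounts 1.6.3, stranded, over exons of the Ensembl release 96 annotation, which by default omits reads on several places or genes. Per the labels, groups and replicate numbers were assigned. Of 58884 genes, 58472 were matched to symbols. The test was edgeR 4.0.16 (R 4.3.3), with its filter by group (minimum count 10), TMM, a robust quasi-likelihood fit and Benjamini-Hochberg adjustment over 15001 genes at 0.05. CPM are TMM-normalized. Ratios were compared by exact permutation of 6 libraries. Depth was 12276313 to 16317672 reads, and the 3-read floor covers counting error only. Named genes were the 10 factors, their partner lists, *HES1*, *HES4*, *HEY1*, cell markers and the 5 most alike genes, all chosen with earlier results of these data known. Alternatives were DESeq2 1.42.0, limma-voom 3.58.1, RLE, upper quartile and library-size scaling, 2 other filters, an adjusted p under 0.01, a replicate block, each library left out, a pseudocount of 0.5, reads without length and a shorter promoter window. The main edgeR fit was tested on simulated counts and the permutation test on made-up values with a known difference. The list of S phase and G2/M genes came from Seurat 5.3.0.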

Additional observations from a re-analysis of the deposited data

How the results depend on the processing

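Direction and call of all 10 genes were kept in each of 14 alternatives, and 9 were lower and 0 higher under every one, also at an adjusted p under 0.01. Their median log2 fold change ran from -0.56 to -0.51 without 1 library and from -0.54 to -0.49 otherwise, the last with scaling by library size alone, which moved the median of all genes to 0.06. Of the partner genes, 31 to 36 were lower and 1 was higher. After each gene's group mean was subtracted from its log2 CPM, same-numbered DAPT and control libraries had correlations of -0.02 to 0.03. These are correlations of what remains within the groups, not of expression itself. Each library was also compared with the 3 of the other group only, so some matches by number arise without any pairing. Of the 6 libraries, 3 were most like the library of their own number. With 3 libraries per group this check is weak. The numbers were not taken as pairs in the main fit. With the replicate block, 9 of the 10 genes and 36 partner genes were lower and the median was -0.53. Of the ratios, 6 kept their sign throughout. Without 1 library, that of *CDT1* to *GMNN* ran from -0.10 to 0.11, *CDC6* to *CDT1* from -0.22 to 0.00465, *GINS2* to its partners from -0.0170 to 0.0462 and *GINS3* to its partners from -0.0149 to 0.160. That of *GINS4* to its partners ran from -0.24 to -0.04, *GINS1* to its partners from 0.00825 to 0.0853 and *CDC45* to GINS from -0.16 to -0.06. Windows with an E2F word fell from 6 to 3 when the bases after the start were removed. Of the other origin recognition genes, 0 to 2 were called lower.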
